A study of Homo sapiens with 4 samples.

Results

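Caveolae are small flask-shaped pits of the plasma membrane. The genes described here are 8 of the 17687 genes named on the arrays: the caveolins CAV1 and CAV2, the cavins CAVIN1, CAVIN2 and CAVIN3, the neck and curvature proteins EHD2 and PACSIN2, and the membrane protein EMP1. The set is a list of caveolar coat genes chosen by the lower CAV1 values with 8Br-cAMP on these same arrays. Those values of CAV1 therefore picked the set, and all 8Br-cAMP differences below are descriptions from which nothing is read. Every one of the 8 genes was measured by 1 probe set that named no other gene.

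RNA came from KGN cells, an established human line derived from a granulosa cell tumour, and was hybridised to Clariom S Human arrays, 1 array for each of 4 groups. The siNC group received control siRNA at 10 nM and, after 48 h, fresh medium without additive for 24 h. The siNC+8Br-cAMP group received the same siRNA and, for the same last 24 h, medium that held 0.5 mM 8Br-cAMP, which enters cells and stands in for cyclic AMP. The siYT group received siRNAs against YAP and TAZ at 5 nM each and medium without additive. The siYT+8Br-cAMP group received those siRNAs and the additive. All groups share the cell line and the transfection, and no untransfected group was analysed here. With 1 array per group the spread between cultures is not known for any difference, and the number of arrays limits the precision. In RNA from whole cultures, fewer cells of a type and less RNA per cell cannot be told apart.

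CAV1 and CAV2 are membrane-inserted proteins that form the coat of the caveola together with the cavins, which bind from the cytoplasmic side. Cavin binding stabilises the curved membrane, and loss of CAV1 or CAVIN1 removes caveolae from most cell types. Caveolae flatten when the membrane is stretched, which makes them a reserve of membrane and a sensor of tension. YAP and TAZ, coactivators held in check by the Hippo pathway, respond to tension too and act on DNA through TEAD factors, and caveolar genes have been described as their targets in other cells. In granulosa cells, gonadotropin receptors signal by raising cyclic AMP.

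Levels are deposited log2 units, and a difference is one log2 level minus another. A difference was called when its size was at least 1, which is 2-fold, and the higher value reached 6.22, the median of all gene-named values. Where the lower of the arrays compared read under the value that 5% of its own negative controls exceed, the difference has only a bound, taken against that value and written as at least that size. The median of the 2197 positive controls was 12.00 on both siNC arrays, and 11.59 and 11.63 on the siYT arrays without and with 8Br-cAMP. It thus lay lower on the siYT arrays, while the median over genes ran from 6.19 to 6.24. Its part in the siRNA differences was not tested. The siRNA targets were lower on the siYT arrays. YAP1 stood at 9.48 in siNC and 6.80 in siYT, and at 9.46 and 6.29 in the same order with 8Br-cAMP. Both siYT values were not above background, so YAP1 was at least 4.57-fold lower without and at least 5.61-fold lower with 8Br-cAMP. WWTR1, which encodes TAZ, read 7.58 in siNC and 9.13 in siNC+8Br-cAMP, higher with 8Br-cAMP by 1.55, and was not above background on either siYT array (5.45 and 5.35). It was therefore at least 1.22-fold lower without and at least 4.47-fold lower with 8Br-cAMP. STAR, a cyclic AMP response gene of steroid-making cells, differed with 8Br-cAMP by 4.16 after siNC and 5.51 after siYT. Of 9 measured granulosa markers 5 reached the level filter on at least 1 array, while FOXL2, AMHR2, INHA and HSD17B1 did not. Of these 5, FSHR and NR5A1 were not above background on any array. In siNC, STAR and GATA4 reached the filter, at 9.84 and 9.88, and CYP19A1 (5.04), FSHR and NR5A1 did not. Markers of the caveola-rich endothelial cells and adipocytes were low: 1 of 6 and 0 of 5 reached the filter, with mean log2 levels per array of 4.27 to 4.80 and of 3.23 to 3.70. Of the muscle markers 1 of 5 reached the filter and of the leukocyte markers 1 of 5, with list means of 4.68 to 5.74 and of 5.36 to 6.16. The muscle marker was CNN1, an actin-binding calponin, at 9.57 and 7.70 on the siNC arrays without and with 8Br-cAMP and 7.08 and 5.48 on the siYT arrays. The siYT values of CNN1 were not above background, and it was at least 4.83-fold lower after siYT without and at least 1.65-fold lower with 8Br-cAMP. Its part in the results was not tested. The leukocyte marker was CD68, a lysosomal protein, which was 1.92 and 2.82 higher after siYT without and with 8Br-cAMP. Its levels ran from 10.33 to 13.15 and were above background on all 4 arrays.

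The stretches of 250 bases just upstream of the outermost RefSeq start are shown for 5 of the genes (GRCh38.p14), because CAV1, CAV2 and EMP1 were the ones called lower with 8Br-cAMP after siNC and CAVIN2 and EHD2 went opposite ways after siYT. They lie at chr7:116524759-116525008 (plus strand), chr7:116499488-116499737 (plus strand), chr12:13196476-13196725 (plus strand), chr2:191847089-191847338 (minus strand) and chr19:47713172-47713421 (plus strand). CAV2 and CAV1 are direct neighbours among the coding genes of chromosome 7. Each sequence reads 5′ to 3′ towards the start, and capitals mark the motif letters found on either strand: the TEAD site GGAATG in CAVIN2, the AP-1 site TGANTCA in EMP1, and the SP1 site GGGCGG, here also as its complement CCGCCC, in the others and in EMP1.
CAV1: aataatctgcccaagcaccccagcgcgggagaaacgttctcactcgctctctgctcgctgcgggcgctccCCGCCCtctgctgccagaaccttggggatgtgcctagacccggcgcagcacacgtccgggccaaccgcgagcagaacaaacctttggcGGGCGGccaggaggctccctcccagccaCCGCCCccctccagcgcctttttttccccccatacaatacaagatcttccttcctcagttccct
CAV2: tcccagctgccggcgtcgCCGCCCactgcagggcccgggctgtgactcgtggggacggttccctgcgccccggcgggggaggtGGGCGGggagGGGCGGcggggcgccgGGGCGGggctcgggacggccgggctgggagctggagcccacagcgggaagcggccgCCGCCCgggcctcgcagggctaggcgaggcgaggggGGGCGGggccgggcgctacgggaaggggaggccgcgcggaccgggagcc
EMP1: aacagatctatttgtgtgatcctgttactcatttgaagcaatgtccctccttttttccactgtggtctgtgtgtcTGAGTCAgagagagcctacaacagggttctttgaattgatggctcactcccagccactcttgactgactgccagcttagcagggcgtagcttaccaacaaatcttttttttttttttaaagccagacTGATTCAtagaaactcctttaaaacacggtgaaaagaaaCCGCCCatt
CAVIN2: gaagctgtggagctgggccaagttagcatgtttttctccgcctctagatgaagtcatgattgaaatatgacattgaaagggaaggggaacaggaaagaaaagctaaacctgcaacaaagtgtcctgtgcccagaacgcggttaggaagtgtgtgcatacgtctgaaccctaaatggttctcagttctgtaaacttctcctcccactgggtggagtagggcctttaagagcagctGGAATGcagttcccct
EHD2: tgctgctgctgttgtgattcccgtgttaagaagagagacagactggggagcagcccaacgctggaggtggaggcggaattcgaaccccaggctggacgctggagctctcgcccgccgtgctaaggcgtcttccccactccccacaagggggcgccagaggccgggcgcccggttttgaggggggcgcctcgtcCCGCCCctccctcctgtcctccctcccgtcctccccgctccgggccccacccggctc
The TEAD letters of CAVIN2 begin at position -16, counted back from the base before the start. The AP-1 letters of EMP1 begin at -175 and -48, with an SP1 match at -9. CAV1 holds SP1 matches at -180, -92 and -64, and CAV2 holds 6 of them. Over windows of 300 bases, which run on to 50 bases after the start, GGAATG occurs in 14% of all 35116 RefSeq promoter windows and in 5 of the 14 windows of these genes, 1 of CAVIN2 and 4 of PACSIN2. Of the 4 of PACSIN2, 3 overlap and share a match. TGANTCA occurs in 7.71% of all windows and in 1 of the 14, and GGGCGG in 45% and in 8. Among these 8, the CAV1 windows that begin at chr7:116524759 and chr7:116524786 overlap and share their matches. The full cyclic AMP response element TGACGTCA, found in 1.85% of all windows, and the CArG box, found in 1.29%, occur in 0 of the 14. A match is a description of letters and no matched letter shows binding.

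**Figure D1:**
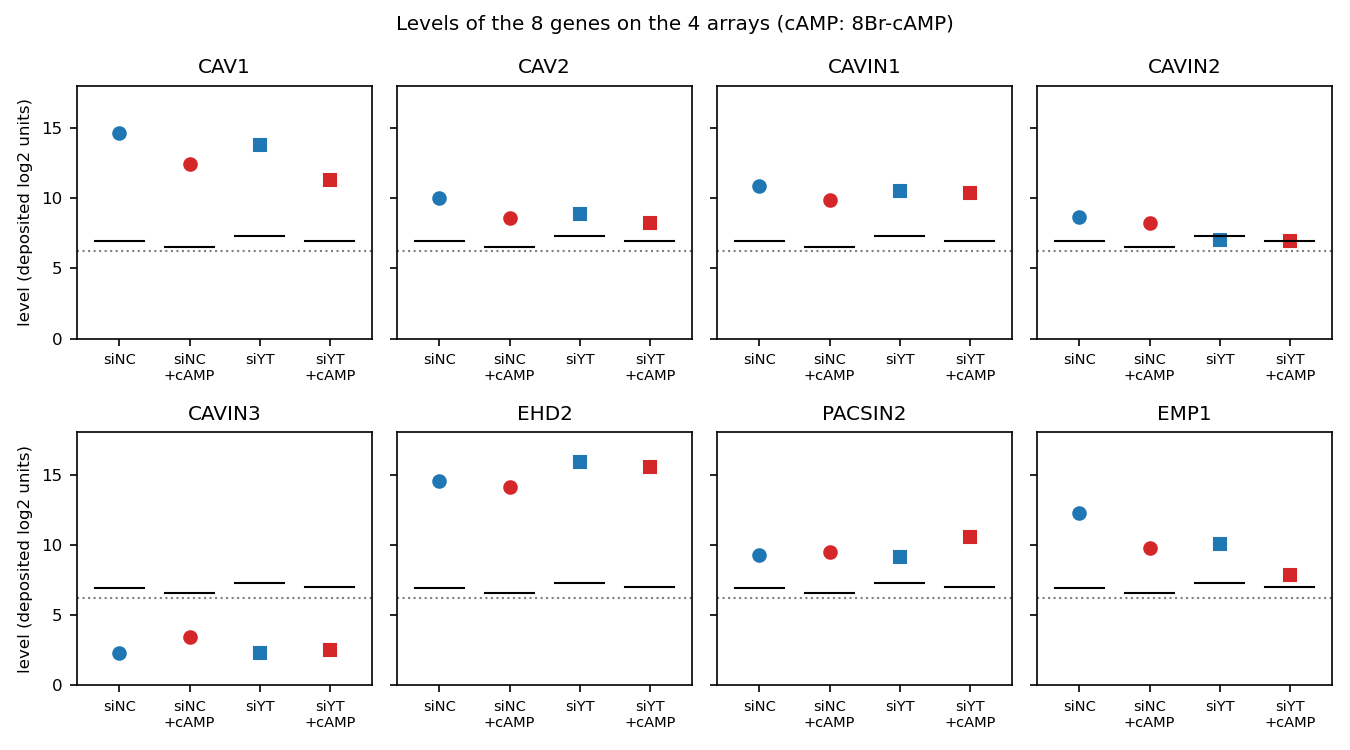
Level of each gene (y axis, deposited log2 units) on the 4 arrays (x axis; circles siNC, squares siYT, blue without and red with 8Br-cAMP). Short bars mark the level that 5% of the array's negative controls exceed and the dotted line the level filter of 6.22; CAV1 and EMP1 step down with both treatments, EHD2 is higher on the siYT arrays and CAVIN3 stays under the line.

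CAV1, the main structural protein of caveolae in non-muscle cells, read 14.67 on the siNC array, 13.83 on the siYT array, 12.44 on the siNC+8Br-cAMP array and 11.31 on the array with both treatments. The control array was highest, and both arrays with 8Br-cAMP lay under both arrays without it. All values were above the negative controls, whose top 5% began between 6.53 and 7.29 on the 4 arrays. The siRNA difference was -0.85 without and -1.13 with 8Br-cAMP, so CAV1 was called only with it. In the additive limma model described below, the mean siRNA difference of CAV1 was -0.99 with an SE of 0.31 and did not pass (limma, adjusted p = 0.0798). It passed after cyclic loess scaling (limma, adjusted p = 0.0407) and among the genes past a filter set from the negative controls (limma, adjusted p = 0.0335).

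The 8Br-cAMP difference of CAV1, by which the set was chosen, was -2.23 after siNC, a level 4.70-fold lower, and -2.52 after siYT, 5.73-fold lower. Of the 9286 genes past the level filter after siNC, 42 had a difference at least that low, CAV1 included, and of the 9263 after siYT, 37 did. The difference of differences, that is the second of these values minus the first, was -0.28 and not called. From siNC to siYT+8Br-cAMP, CAV1 differed by -3.36, which is 10.3-fold.

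CAV2, the partner that is carried to the surface by CAV1, read 10.04 on the siNC array, 8.86 on the siYT array, 8.57 on the siNC+8Br-cAMP array and 8.25 on the siYT+8Br-cAMP array. The siNC array stood apart, and the other 3 lay within 0.61 of one another. The siRNA difference was therefore -1.18 without 8Br-cAMP, which was called, and -0.33 with it, which was not. The 8Br-cAMP difference was -1.46 after siNC, 2.76-fold lower, and -0.61 after siYT. The mean siRNA difference of -0.75 (SE 0.33) did not pass (limma, adjusted p = 0.219). The order of the 4 arrays was the same for CAV2 as for CAV1, and siYT lay above siNC+8Br-cAMP by 1.39 for CAV1 and by 0.28 for CAV2.

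The 3 cavins were measured with different results. CAVIN1, also called PTRF, which is required for caveolae to form, read 10.89 (siNC), 10.50 (siYT), 9.90 (siNC+8Br-cAMP) and 10.38 (siYT+8Br-cAMP). Its values spanned 0.99, and none of its differences was called. The siRNA difference was -0.38 without and 0.48 with 8Br-cAMP, and the mean of 0.05 (SE 0.33) did not pass (limma, adjusted p = 0.957). The 8Br-cAMP difference was -0.99 after siNC, just short of the call size, and -0.12 after siYT. With each array centred on its median the former was -1.03 and with cyclic loess -1.07, both past the call size.

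CAVIN2, also called SDPR, which helps to bend the caveolar membrane, read 8.65 and 8.23 on the siNC arrays without and with 8Br-cAMP, against 6.996 and 6.96 on the siYT arrays. Both siYT arrays lay under both siNC arrays. Both siYT values lay below the top 5% of negative controls on their own arrays, which began at 7.29 and 6.98, and so were not above background. CAVIN2 was at least 2.57-fold lower after siYT without 8Br-cAMP and at least 2.38-fold lower with it, where the measured differences were -1.66 and -1.27. CAVIN2 fell in the additive model, which takes the measured values (mean -1.46, SE 0.31; limma, adjusted p = 0.0162). The 8Br-cAMP differences were -0.42 after siNC and -0.04 after siYT, and neither was called.

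CAVIN3, also called PRKCDBP, a cavin that binds protein kinase C delta, read 2.26 and 3.44 on the siNC arrays without and with 8Br-cAMP and 2.30 and 2.53 on the siYT arrays. All 4 values lay under the median of the negative controls of their array, 3.53 to 3.67. CAVIN3 was under the level filter on 4 of 4 arrays, so its difference of 1.17 with 8Br-cAMP after siNC was not called. CAVIN3 was thus not detectable on these arrays, and 7 of the 8 genes reached the filter on every array.

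EHD2, an ATPase that sits at the neck of caveolae and holds them at the membrane, was higher after siYT in both media. CAV1 and CAV2 were lower in both, but CAV1 was called only with 8Br-cAMP and CAV2 only without it. EHD2 read 14.58 and 14.10 on the siNC arrays without and with 8Br-cAMP, and 15.89 and 15.53 on the siYT arrays. Both siYT arrays lay above both siNC arrays. The siRNA difference was 1.31 without 8Br-cAMP, 2.49-fold, and 1.43 with it, 2.70-fold. EHD2 rose in the additive model (mean 1.37, SE 0.31; limma, adjusted p = 0.0203). With 8Br-cAMP it differed by -0.48 after siNC and -0.36 after siYT, and neither was called.

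PACSIN2, also called syndapin 2, which shapes the caveolar neck with its membrane-bending F-BAR domain, read 9.29 (siNC), 9.11 (siYT), 9.50 (siNC+8Br-cAMP) and 10.57 (siYT+8Br-cAMP). The array with both treatments was high and the other 3 lay within 0.39 of one another. The siRNA difference was -0.18 without and 1.07 with 8Br-cAMP. Between the media, PACSIN2 differed by 0.21 after siNC and by 1.45 after siYT. The mean siRNA difference of 0.44 (SE 0.36) did not pass (limma, adjusted p = 0.547). PACSIN2 was the only one of the 8 genes whose difference of differences was called, at 1.24. Over all genes 8.39% were called for it, 853 lower (4.82%) and 631 higher (3.57%), or 686 lower and 801 higher with each array centred on its median. Of the genes past the level filter, 15.2% were called for it without that centring.

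EMP1, a membrane protein of the PMP22 family that is not itself a coat protein, had the widest range of the 8 genes. It read 12.27 on the siNC array, 10.06 on the siYT array, 9.76 on the siNC+8Br-cAMP array and 7.86 on the siYT+8Br-cAMP array. Each treatment alone gave a lower level, and the array with both was lowest. The siRNA difference was -2.21 without 8Br-cAMP, 4.63-fold, and -1.89 with it, 3.71-fold. EMP1 fell in the additive model (mean -2.05, SE 0.31; limma, adjusted p = 0.00276). The 8Br-cAMP difference was -2.52 after siNC, 5.72-fold lower, and -2.20 after siYT, 4.59-fold lower. The difference of differences was 0.32 and not called. From siNC to siYT+8Br-cAMP EMP1 differed by -4.41, which is 21.2-fold. EMP1 was the only one of the 8 genes lower by at least 1 in all 4 differences, as were 0.537% of all genes, 95 in number. None of the 8 was higher in all 4, as were 0.458% of all genes.

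**Figure D2:**
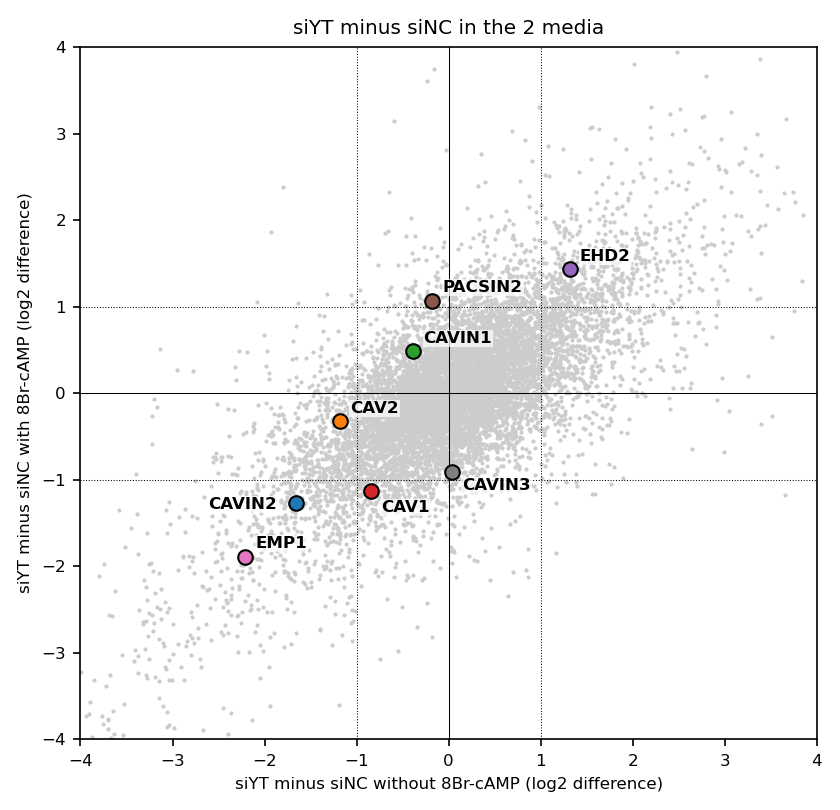
Difference between siYT and siNC without 8Br-cAMP (x axis) and with it (y axis), in log2 units, for the 8 genes (large points) and, in grey, the 9750 genes that reached the level filter on at least 1 array; dotted lines mark the call size of 1 and 82 grey genes lie beyond the axes. EMP1 and CAVIN2 lie past the lower line in both media, EHD2 past the upper line in both, and CAV1, CAV2 and PACSIN2 past a line in 1 medium each.

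The comparison of YAP/TAZ siRNA with control siRNA asked how the caveolar genes stood when both coactivators were reduced. Without 8Br-cAMP, CAV2, CAVIN2 and EMP1 were called lower and EHD2 higher, and 4 of the 8 genes were not called. Over all genes 14.9% were called in that difference, 7.32% lower and 7.6% higher, and 28.1% of those past the level filter, which 7 of the 8 genes passed. With 8Br-cAMP, CAV1, CAVIN2 and EMP1 were called lower, EHD2 and PACSIN2 higher and 3 not, against 11.5% of all genes (5.94% lower and 5.52% higher) and 21.7% of those past the filter. Called in the same direction in both media were CAVIN2 and EMP1, lower (3.89% of all genes), and EHD2, higher (3.44%). The median difference of the 8 genes was -0.62 in either medium, beside 0.02 and 0.06 over all genes. With 8Br-cAMP that median lay midway between CAV2 (-0.33) and CAVIN3 (-0.91). CAVIN3 was not detectable, so the size of that median rests in part on a background value. Since the genes were picked with results of these arrays known, the counts describe the list and call nothing particular to it.

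The additive model in limma fitted siRNA and 8Br-cAMP as terms to all 17687 genes, with Benjamini-Hochberg adjustment over all of them and a threshold of 0.05. Its error has 1 residual degree of freedom, which holds the difference of differences, and is moderated over genes. Replicate cultures do not enter its p-values. CAVIN2 and EMP1 fell, EHD2 rose and the other 5 genes did not pass, where 8.97% of all genes passed, 4.67% lower and 4.3% higher. With log2 of the linear value plus 32, which damps low values, limma called 0 of the 8 genes and 0 of all genes, although unadjusted p was under 0.05 for 4 of the 8 and for 3964 of all. The means of CAVIN2, EHD2 and EMP1 were then -1.27, 1.37 and -1.97, with limma adjusted p of 0.0754, 0.0618 and 0.0611. Over all settings run, the limma adjusted p ranged from 0.00435 to 0.0754 for CAVIN2, from 0.00598 to 0.0618 for EHD2, from 0.000172 to 0.0611 for EMP1 and from 0.0335 to 0.0839 for CAV1.

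**Figure D3:**
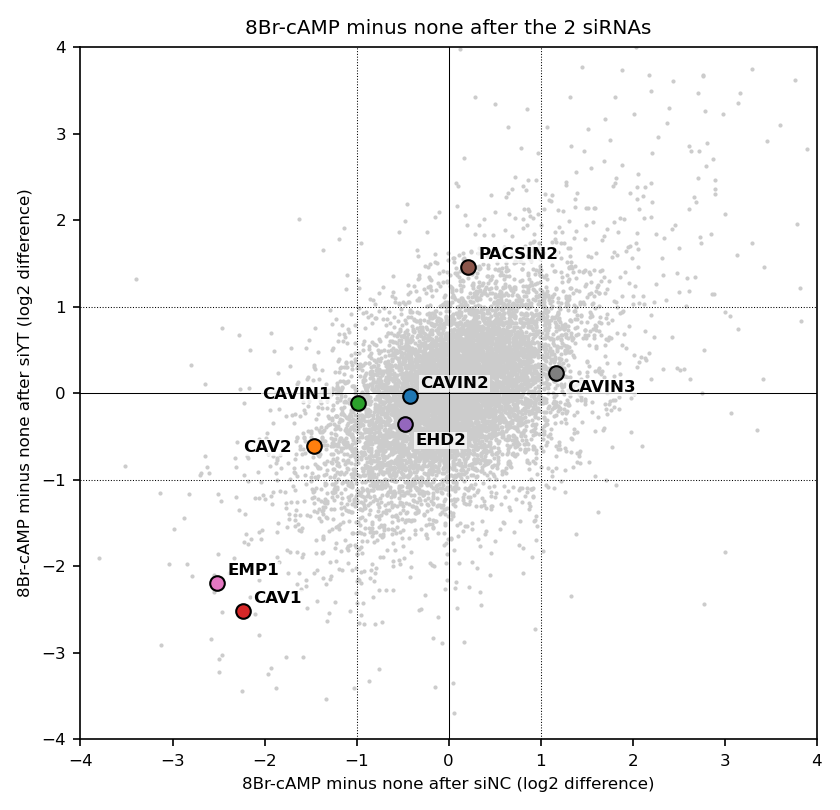
Difference between 8Br-cAMP and none after siNC (x axis) and after siYT (y axis), in log2 units, for the 8 genes and, in grey, the 9750 genes that reached the level filter on at least 1 array; dotted lines mark the call size of 1 and 48 grey genes lie beyond the axes. CAV1, by which the set was chosen, and EMP1 lie past the lower line after both siRNAs, at -2.23 and -2.52 and at -2.52 and -2.20.

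The comparison of 8Br-cAMP with none asked how the same genes stood under cyclic AMP stimulation. After siNC, CAV1, CAV2 and EMP1 were called lower and 0 of the 8 higher, where 8.06% of all genes were called, 3.74% lower and 4.32% higher. After siYT, CAV1 and EMP1 were called lower and PACSIN2 higher, where 8.21% were called, 4.15% lower and 4.06% higher. CAV1 and EMP1 were thus lower after both siRNAs, as were 1.31% of all genes, and 0 of the 8 were higher after both, as were 1.74%. Among genes past the level filter, 15.4% were called after siNC and 15.7% after siYT. Because the rule used this contrast, nothing is read from these counts. Between siNC and siYT+8Br-cAMP, the arrays that differ in both treatments, CAV1, CAV2, CAVIN2 and EMP1 were called lower and PACSIN2 higher, where 19% of all genes were called, 9.12% lower and 9.84% higher. Of the genes past the level filter, 35.5% were called in that comparison. EHD2 differed by 0.96 there and was not called. These comparisons share arrays, so their values stand side by side and do not support one another.

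Other genes of the caveola and of neighbouring membrane systems were taken from 6 lists. Counts of called genes are of the listed genes measured, and a gene could be called through its higher array alone. Among 11 measured relatives of the neck and muscle proteins, 3 were called lower and 0 higher after siYT without 8Br-cAMP, and 1 lower and 1 higher with it, with medians of -0.05 and -0.20. List medians take in genes under the level filter, and both of these medians were the values of CAVIN4, which never reached it. The shares over all genes were 7.32% lower and 7.6% higher without 8Br-cAMP and 5.94% and 5.52% with it. With 8Br-cAMP, 2 were called lower and 0 higher after siNC (3.74% and 4.32% of all genes), and 1 lower and 1 higher after siYT (4.15% and 4.06%). EHD4, a relative of EHD2 that works in endosomes, read 8.32 in siNC and 7.95 in siNC+8Br-cAMP and was not above background on the siYT arrays (7.13 and 6.33). It was at least 2.03-fold lower after siYT without and at least 1.97-fold lower with 8Br-cAMP. On the measured values it fell (mean -1.40, SE 0.31, limma adjusted p = 0.0204), and the other 10 did not pass, where 8.97% of all genes passed. EHD1, another endosomal relative, differed by -1.37 and -0.30 and did not pass (limma, adjusted p = 0.189). EHD3 read 6.82 in siNC, not above background, and 7.54 in siYT, at least 1.51-fold higher, and with 8Br-cAMP it was 1.00 higher after siYT. ROR1, a receptor-like kinase that has been described as a scaffold of CAV1 and CAVIN1, read 12.31 (siNC), 10.63 (siYT), 10.00 (siNC+8Br-cAMP) and 9.43 (siYT+8Br-cAMP). Its order of arrays was that of CAV1, with siRNA differences of -1.68 and -0.58, which did not pass (limma, adjusted p = 0.0783), and 8Br-cAMP differences of -2.31 and -1.20. ABL1, a kinase linked to caveolae and stress fibres, was 0.94 and 0.81 higher after siYT and not called. The muscle forms CAV3 and CAVIN4 never reached the level filter, nor did PACSIN1 and PACSIN3.

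Of 15 measured receptors and enzymes reported in caveolae, 1 was called lower and 4 higher after siYT without 8Br-cAMP, and 1 lower and 2 higher with it, where 14.9% and 11.5% of all genes were called. The 2 higher included CD36, a fatty acid receptor that reached the level filter on 1 array. With 8Br-cAMP, 2 were called lower and 3 higher after siNC, and 1 lower and 3 higher after siYT, CD36 again among the latter, where 8.06% and 8.21% of all genes were called. TGFBR1, the type I receptor of TGF-beta, fell, with -1.58 and -1.86 (limma, adjusted p = 0.00678), and differed with 8Br-cAMP by 1.98 and 1.70. ATP2B4, a calcium pump of the plasma membrane, rose, with 1.28 and 1.19 (limma, adjusted p = 0.0321). PDGFRB, a receptor of platelet-derived growth factor, was 1.87 and 0.47 higher after siYT and did not pass (limma, adjusted p = 0.0888). IGF1R, the receptor of insulin-like growth factor, differed with 8Br-cAMP by 1.55 after siNC and 1.28 after siYT. The list's medians for the siRNA, 0.38 and 0.17, lay on the other side of 0 from those of the 8 caveolar genes. The second of the list's medians was the value of NOS3, which never reached the level filter.

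The 13 flotillins and other raft scaffolds, which organise membrane without caveolae, had 1 member called lower without and 3 with 8Br-cAMP after siYT, where 7.32% and 5.94% of all genes were called lower. None of the 13 was called higher (7.6% and 5.52% of all genes), and 0 passed in limma, where 8.97% of all genes passed. The medians were 0.06 and -0.35. FLOT1 and FLOT2, the flotillins themselves, differed by 0.79 and 0.43 and by 0.36 and -0.59. MAL2, a raft protein of sorting vesicles, differed by -1.09 and -1.07 and did not pass (limma, adjusted p = 0.0556). LYN, a membrane-anchored kinase, differed by -0.57 and -1.38, and CD59, a complement inhibitor with a lipid anchor, by 0.57 and 0.91. With 8Br-cAMP, CD59 differed by 0.69 and 1.03 after siNC and siYT, and STOM, the raft protein stomatin, differed by -0.34 and -1.09. In that comparison 0 of the 13 were called after siNC, and 2 lower and 1 higher after siYT, where 8.06% and 8.21% of all genes were called.

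Of the 5 measured EMP1 relatives, TMEM47, a junctional membrane protein, rose after siYT and was called in both media (14.9% and 11.5% of all genes were called), from 13.92 to 15.34 without and from 13.13 to 14.56 with 8Br-cAMP (limma, adjusted p = 0.0169). PERP, a p53 target at cell junctions, was 0.64 and 1.13 higher and was called only with 8Br-cAMP. EMP2 differed by -0.77 and -0.49 and was not called, and neither gene passed in limma. Of the 5, 1 was thus called higher without and 2 with 8Br-cAMP, and 0 lower. With 8Br-cAMP, EMP2 differed by -0.52 after siNC and -0.24 after siYT, where EMP1 differed by -2.52 and -2.20. EMP3 differed by -0.58 and -0.20 in the same comparisons, and 0 of the 5 were called in either (8.06% and 8.21% of all genes).

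Clathrin coat genes serve the other main route of endocytosis. Of 25 measured, 0 were called in either direction after siYT in either medium, beside 14.9% and 11.5% of all genes. In limma 0 of the 25 passed, where 8.97% of all genes did. The medians of the 25 were -0.22 and 0.03. CLTA, a clathrin light chain, differed by -0.88 and -0.60, and AP2A2, an adaptor subunit, by 0.59 and 0.86. With 8Br-cAMP, 1 was called higher after siNC and 2 after siYT, where 4.32% and 4.06% of all genes were, and 0 lower. These were SYNJ1, which uncoats vesicles, after both siRNAs and FCHO1, which nucleates clathrin pits, after siYT (1.23). SYNJ1 was not above background without 8Br-cAMP (5.76 in siNC and 6.69 in siYT), and with it was at least 1.13-fold higher after siNC and at least 1.33-fold higher after siYT. Caveolae need cholesterol, and of 9 measured genes of cholesterol supply and export 2 were called lower and 2 higher without 8Br-cAMP, and 1 lower and 3 higher with it, with medians of 0.52 and 0.70, where 14.9% and 11.5% of all genes were called. With 8Br-cAMP, 3 were called lower and 0 higher after either siRNA, where 8.06% and 8.21% of all genes were called. ACAT2, which feeds sterol synthesis, fell on the measured values (mean -1.84, SE 0.31; limma, adjusted p = 0.00464). It differed by -1.95 without 8Br-cAMP and was at least 2.30-fold lower with it, where siYT+8Br-cAMP (6.44) was not above background. SREBF2, the activator of sterol genes, was 1.62 and 0.70 higher after siYT and did not pass (limma, adjusted p = 0.0614). ABCG1, a cholesterol exporter counted among the 3 higher, was above background on 0 of 4 arrays, so its difference is not given. INSIG1, a brake on sterol synthesis, differed by -1.35 and -0.82 with 8Br-cAMP.

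**Figure D4:**
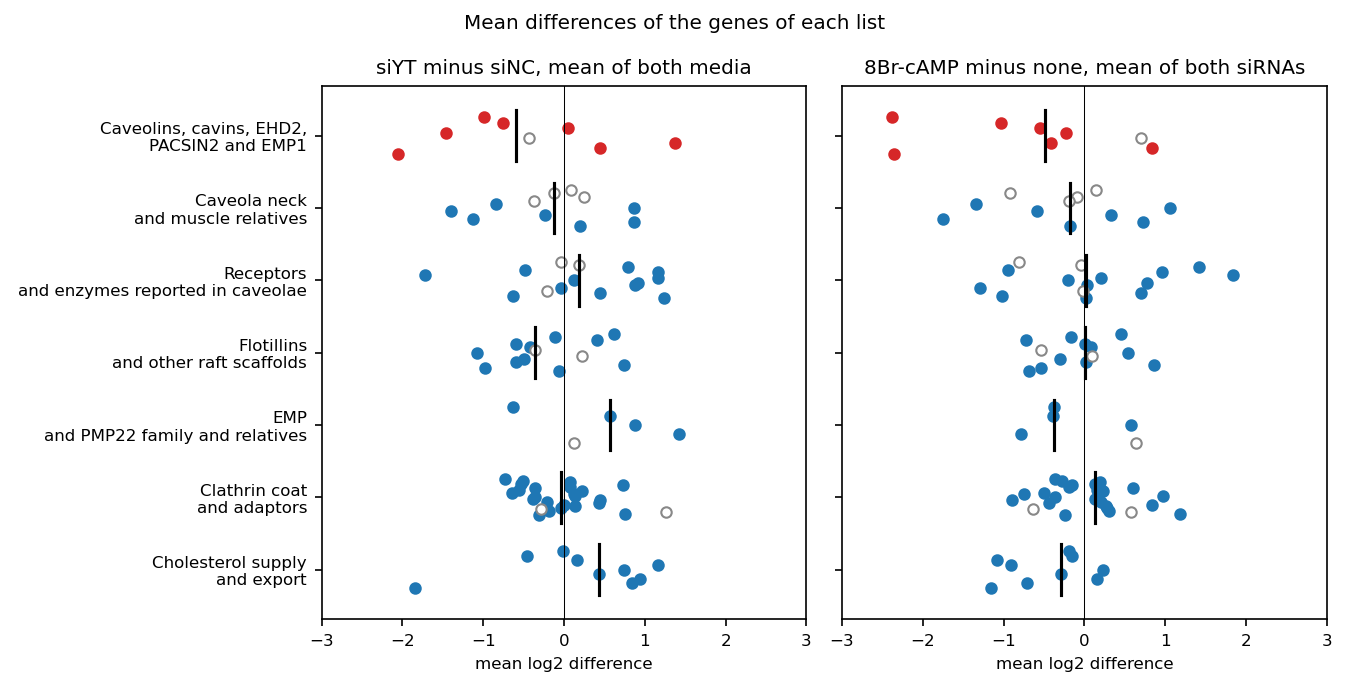
Mean log2 difference of each gene (points; x axis) in the lists named on the y axis, for the siRNA over both media (left) and for 8Br-cAMP over both siRNAs (right). Filled points reached the level filter on at least 1 array, open points did not, and black bars are list medians; EMP1 lies at -2.05 and EHD2 at 1.37 on the left, and CAV1 at -2.38 and EMP1 at -2.36 on the right.

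The genes nearest in pattern were ranked by the root mean square difference of the centred log2 levels over the 4 arrays, among 9749 genes past the level filter. Over 4 arrays a near match is a description of levels and no more. CAV1 was nearest to ULBP1, a ligand of an immune receptor, at 0.10, followed by PRXL2C, NAV3 and AHNAK at 0.25 each. EMP1 stood 78th from CAV1, at 0.55, CAV2 264th at 0.74, CAVIN1 1800th at 1.09 and CAVIN2 1975th at 1.11. EHD2 and PACSIN2 were far, at 1.54 and 1.80. EMP1 was nearest to NEDD4L, a ubiquitin ligase, at 0.09 and to SMAGP at 0.11, then to MTHFD2, a mitochondrial folate enzyme, and TNFRSF12A, the TWEAK receptor. CAVIN2 was nearest to NOP16, a nucleolar protein, at 0.03, then to SLC43A3, MAT2A and RIMKLB, and EHD2 to PPP1R21, CD99, TCN2 and SCMH1, at 0.06 to 0.10. CAV2 was nearest to FANCC, STK32C, SVIP and HEATR1, and PACSIN2 to PCNX3, FLRT2, PTP4A2 and ERMARD. These 6 are the genes of the 8 that reached the level filter and spanned at least 1 over the 4 arrays. None had another of the 8 among its nearest 4, from which nothing is read with 9749 genes ranked. Some near matches rest on background values. PPP1R21, STK32C and SVIP were not above background on any array, and ULBP1 was above it only in siNC (8.22). PRXL2C (5.88), NAV3 (5.86), AHNAK (6.49) and SMAGP (6.22) were not above background in siYT+8Br-cAMP. FANCC and RIMKLB were not above it on either siYT array, TCN2 on either siNC array and FLRT2 in siYT.

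**Figure D5:**
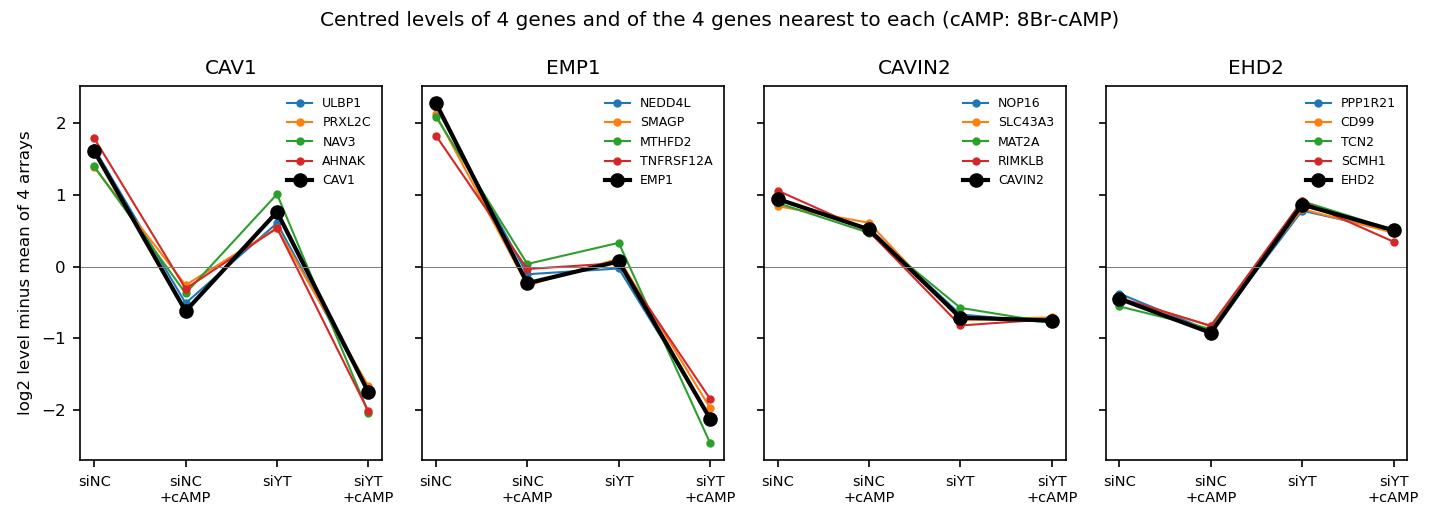
Log2 level minus the mean of the 4 arrays (y axis) on each array (x axis) for CAV1, EMP1, CAVIN2 and EHD2 (black) and the 4 genes nearest to each (coloured). CAV1 and EMP1 are highest in siNC and lowest in siYT+8Br-cAMP, CAVIN2 separates the siNC from the siYT arrays downwards and EHD2 upwards.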

How the data were processed

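Total RNA of 4 KGN cultures was measured on Clariom S Human arrays, 1 per group. The authors deposited log2 values made by RMA (Affymetrix Expression Console), per the labels; software versions are not given in the sources used here. Across probe sets they run from 1.39 to 19.36; values above 16, the log2 range of a 16-bit scanner, leave a further rescaling by the authors possible, so folds need not be ratios of signals. Of 24351 probe sets, 17709 named 1 gene, through the platform annotation, and gave 17687 genes; the 20 genes with several probe sets were averaged. Differences between arrays were called by size and level as stated. The additive fit used limma 3.58.1 in R 4.3.3 and was checked on simulated data. The members and lists were chosen with earlier results of these data known. Named genes are the members, per list up to 3 with the largest mean siRNA and 2 with the largest mean 8Br-cAMP difference that reached the level filter, 8 treatment checks of which those that bear on the text are given, and the 4 nearest patterns; EHD3, CD36, CNN1, CD68, FLOT1, FLOT2, EMP3 and relatives under the filter were named after their values were seen. Promoter windows are from RefSeq (GRCh38.p14) and cover 6 of the 8 genes. Proteins were not used here.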

Additional observations from a re-analysis of the deposited data

Results flagged for a closer look

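PACSIN2 differed between siYT and siNC in opposite directions in the 2 media, by -0.18 without and by 1.07 with 8Br-cAMP. The difference of these differences was 1.24 on the log2 scale, past the call size of 1. With 1 array per group this opposition was not tested. The sign of each value was kept under each scaling alternative run, between -0.22 and -0.17 without and between 1.03 and 1.12 with 8Br-cAMP.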

How the results depend on the processing

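Alternatives were log2 of the linear value plus 32, each array centred on its median, cyclic loess, no level filter, a filter at the negative controls (6.95), calls at 1.5-fold, and the highest probe set of a gene. The comparison of siYT+8Br-cAMP with siNC was put through them after seeing the data. Of the size calls of the 8 genes in the 6 comparisons, 0 were lost and 0 reversed under any of them. Calls at 1.5-fold and no level filter could only add calls, and the filter at 6.95 lay under the higher value of each called difference. The highest probe set left the values of these genes as they were, because each has 1 probe set. Only the offset, the centring and cyclic loess could have changed or reversed a call. For the difference of differences, 3 of the 8 genes instead of 1 were called at 1.5-fold, all higher (CAV2, CAVIN1 and PACSIN2). Calls gained at 1.5-fold were CAV1 for siYT without 8Br-cAMP, CAVIN1 after siNC and CAV2 after siYT with 8Br-cAMP, and EHD2 for siYT+8Br-cAMP against siNC; without a level filter CAVIN3 was gained at 1.17. Over all genes, calls at 1.5-fold numbered 4679 for siYT without 8Br-cAMP in place of 2639, 4124 with it in place of 2028, 3517 and 3418 for 8Br-cAMP in place of 1426 and 1452, 5391 for siYT+8Br-cAMP against siNC in place of 3354, and 3726 for the difference of differences in place of 1484. With no level filter the last was 2756, and it was 1026 with the offset of 32. In the additive limma fit 0 of the 8 genes passed with that offset in place of 3, as did 0 of all genes in place of 1586, although 3964 had an unadjusted p under 0.05; the prior degrees of freedom were then 2.17 in place of 9.24. Of the 48 differences, 2 changed sign, both under 0.05 in size: CAVIN2 with 8Br-cAMP after siYT and CAVIN3 with siYT without 8Br-cAMP. Leaving out an array leaves a group empty, so it was not run. No paired analysis was possible because each group has 1 array. Values near the negative controls, those of CAVIN3 and of CAVIN2 after siYT, are limited by signal over background.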
